A study of Homo sapiens with 4 samples.

Results

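The 44 genes described here encode the ligands, receptors, antagonists, SMAD proteins and first target genes of the TGF-beta and BMP pathways. They were followed in hFOB1.19 cells, a human fetal osteoblast line kept in division by a temperature-sensitive viral T antigen, in which mineralization was induced by moving the culture to a higher temperature. The genes were taken by symbol from a list of the pathway, and all 44 were found among the 19610 gene symbols of the deposited mRNA table, with 191 transcripts between them. The series holds 4 libraries of rRNA-depleted total RNA, 1 for each time point. Day 0 is the control, collected from cells at the lower temperature before induction. The libraries of days 3, 6 and 9 come from cells undergoing mineralization at the higher temperature, as the study's methods describe its mineralization cultures, with fresh medium at the change. All libraries come from the one cell line, so they describe no other osteoblast.

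TGF-beta, activin and BMP ligands are secreted dimers that bind pairs of type I and type II receptor kinases. TGF-beta and activin receptors mainly phosphorylate SMAD2 and SMAD3, and BMP receptors SMAD1, SMAD5 and SMAD9, and both groups of SMAD proteins enter the nucleus with SMAD4. In bone, BMP drives osteoblast commitment, whereas TGF-beta is stored in the matrix in a latent form and recruits and expands osteoblast precursors. The pathways induce their own brakes, among them SMAD6, SMAD7, BAMBI and SKIL, and the genes of the ID family are direct BMP targets in many cells.

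The authors deposited FPKM for each transcript, fragments scaled by transcript length and by the mapped fragments of the library, and these were summed per gene. FPKM are scaled by length, so levels of different genes can be set side by side within a library. A log2 ratio was taken after 1 FPKM was added to each value, so ratios of genes near or under 1 FPKM come out smaller than the plain ratio. Where 4 levels are listed for a gene they are those of days 0, 3, 6 and 9 in that order, and 3 log2 ratios are those of days 3, 6 and 9 to day 0. A gene was counted as higher or lower when its log2 ratio was at least 1 or at most -1, here called the limit, and when it had at least 1 FPKM in any library, here called the minimum. With 1 library per time point there is no replicate, so no value carries an error, no test between days was possible and no p-value is given. FPKM hold no read counts, so the depth behind a value is unknown, and the comparisons of days 3, 6 and 9 with day 0 share the day 0 library. In these cultures the time since induction, the temperature and the change of medium differ together between day 0 and the later days. They cannot be told apart. Between days 3, 6 and 9 the temperature was the same. In bulk RNA, fewer cells that express a gene and less RNA of it per cell cannot be told apart.

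Of 10 osteoblast markers, 7 passed the minimum. SPARC, a calcium-binding matrix protein, was at 1113 to 1469 FPKM in the 4 libraries, and the collagen gene COL1A1 at 777 to 1974 FPKM. SP7, IBSP and BGLAP, genes of mature osteoblasts, stayed under 1 FPKM in every library. Among markers of other cell types, the endothelial CDH5 and PECAM1, the blood cell marker PTPRC and the epithelial markers EPCAM and CDH1 were under 1 FPKM in every library. The summed level of 5 endothelial markers was 10.6 to 18.2 FPKM, most of it TEK, that of 5 blood cell markers 17.4 to 91.6 FPKM, most of it CD68, and that of 5 epithelial markers 182 to 395 FPKM, most of it KRT18. No marker of 5 adipocyte genes reached 1 FPKM, and 5 chondrocyte markers summed to 13.6 to 18.5 FPKM. Of the markers of other cell types, 3 were past the limit against day 0. CD68, a lysosomal protein of macrophages, had log2 ratios of 1.16, 1.94 and 2.41, KRT18, an epithelial keratin, -0.87, -1.11 and -1.07, and SOX9, a transcription factor of cartilage, 1.31, 1.46 and 1.52. The part of these markers in the results was not tested.

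Of the 44 genes, 39 passed the minimum and 5 did not. The ligand genes TGFB3, BMP2, BMP6 and BMP7 and the antagonist gene CHRD stayed under 1 FPKM in each library, and BMP2, the classical bone-inducing ligand, reached at most 0.200 FPKM. At the other end, TGFBI, a matrix protein named for its induction by TGF-beta, had the highest level of the 44 genes, with 658 FPKM on day 0 and 616, 597 and 647 FPKM later (log2 ratios -0.10, -0.14 and -0.02). In all, 14 genes were past the limit on at least 1 day against day 0, 9 of them higher and 5 lower, and 25 of the 39 were within it on each day. The higher genes code for ligands, latent TGF-beta binding proteins, a receptor, an antagonist and a ubiquitin ligase. The lower genes were 3 of the 4 ID genes, ID1, ID2 and ID4, with the inhibitory SMAD6 and the BMP-branch SMAD9.

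**Figure D1:**
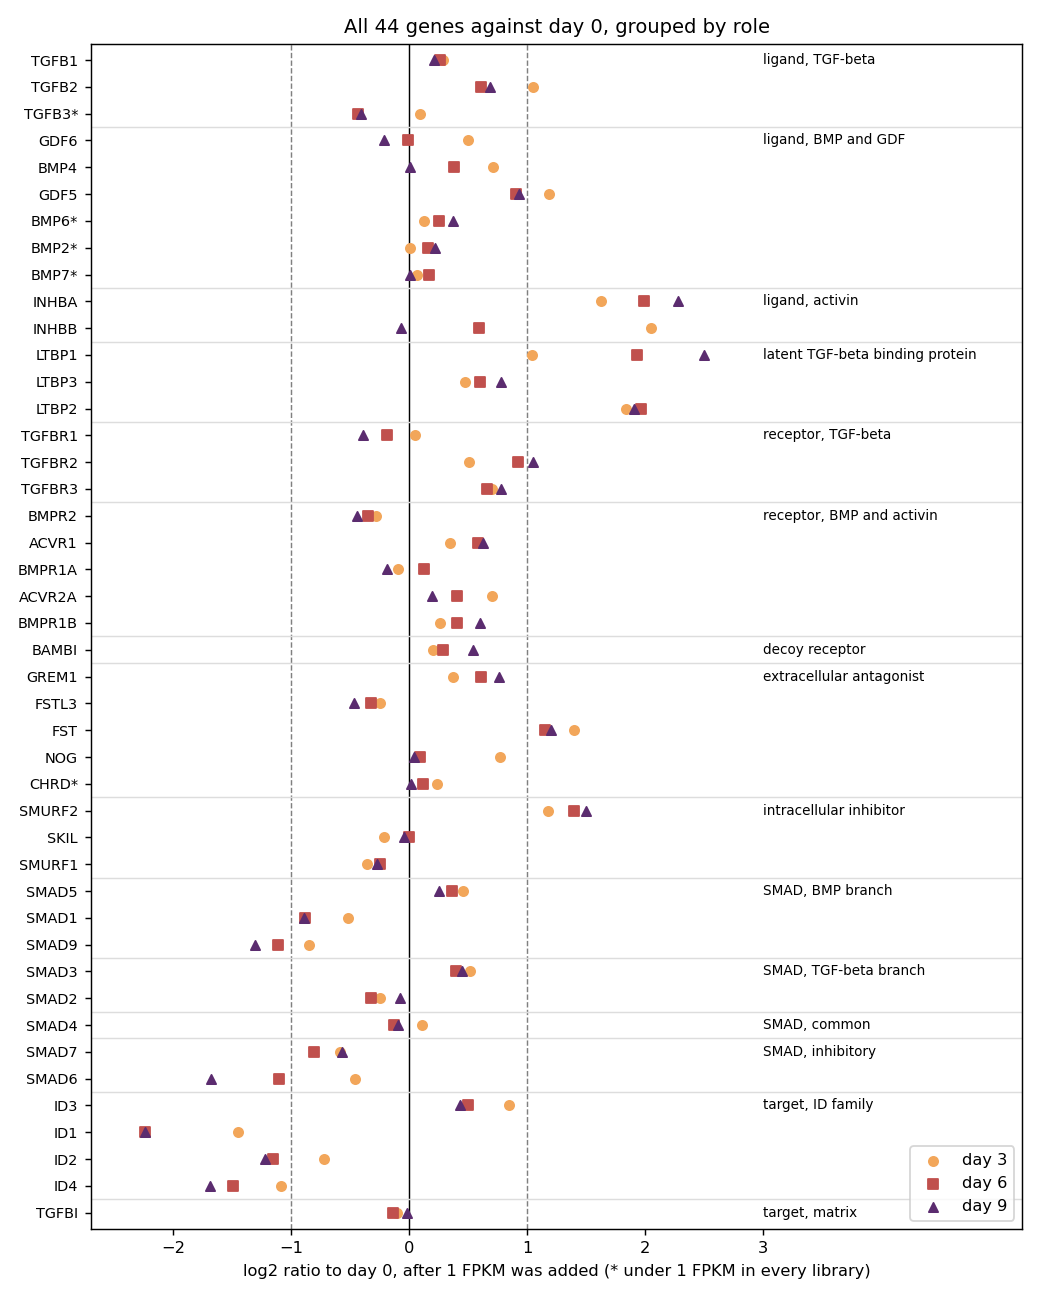
Log2 ratio to day 0 (x axis) of each of the 44 genes (rows, grouped by role) on day 3 (circles), day 6 (squares) and day 9 (triangles), with dashed lines at the limits of -1 and 1 and an asterisk for the 5 genes under 1 FPKM in every library. INHBA, LTBP1, LTBP2, FST and SMURF2 lie right of the upper limit on each day, and ID1 and ID4 left of the lower limit on each day.

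On day 3, 8 of the 39 genes were higher than on day 0, or 20.5% of them, and 2 were lower, or 5.13%. Over all 12859 symbols past the minimum, 8.13% were higher and 5.3% lower on that day. For day 6 the counts were 5 higher and 5 lower, 12.8% each, where 9.01% and 6.42% of all symbols were. For day 9 they were 6 higher and 5 lower, 15.4% and 12.8%, where 9.6% and 6.52% of all symbols were. The share of lower genes was thus near that of all symbols on day 3. On days 6 and 9 it was above that of all symbols, a difference that was not tested. The genes were chosen with earlier results of these data known, so these shares are a description only. The median absolute log2 ratio to day 0 of the 39 genes was 0.52, 0.58 and 0.57, beside 0.43, 0.45 and 0.45 over all symbols. Their median log2 ratio was 0.35, 0.29 and 0.04, beside -0.08, -0.08 and -0.09 over all symbols.

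**Figure D2:**
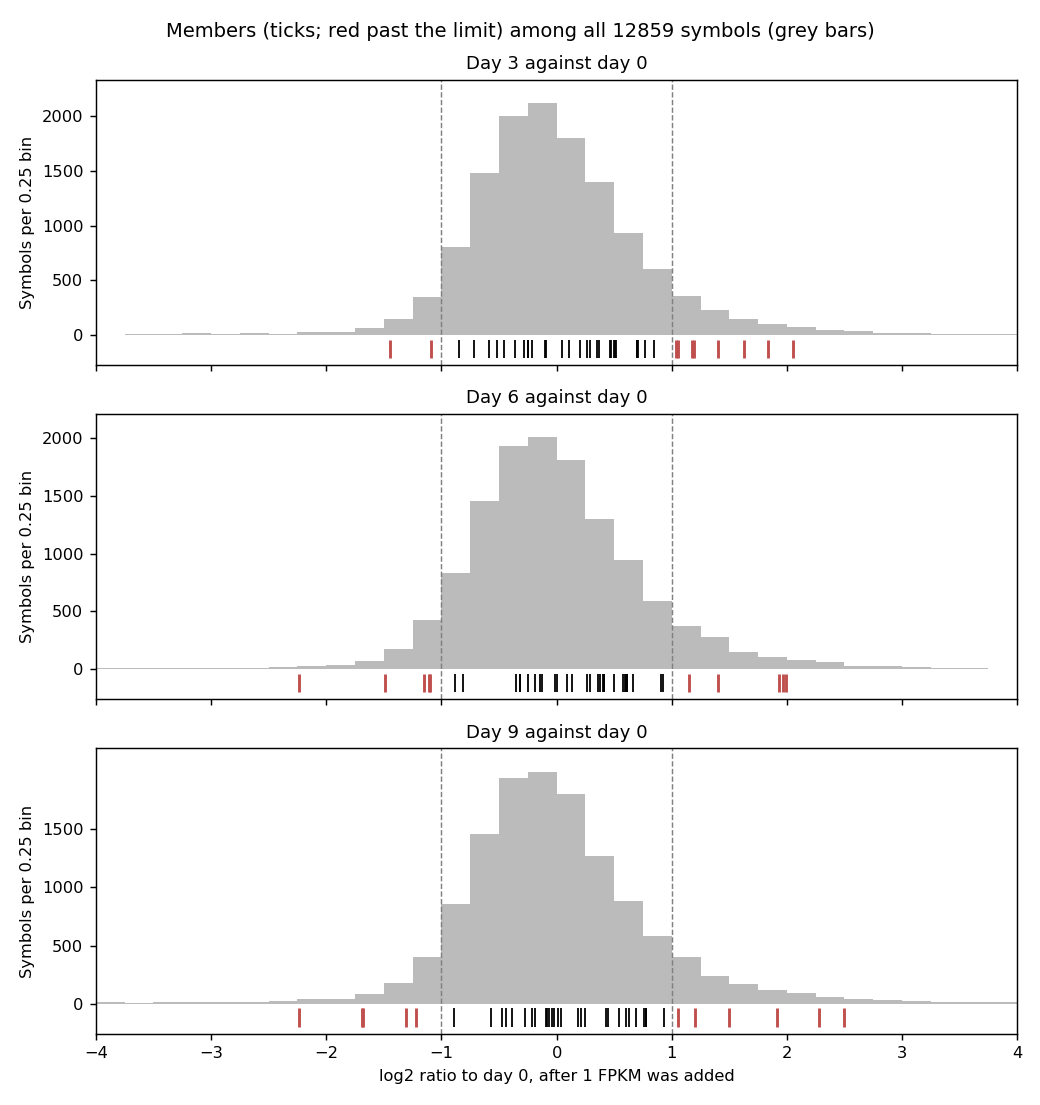
Number of gene symbols (y axis) per bin of log2 ratio to day 0 (x axis, drawn from -4 to 4) on day 3, day 6 and day 9, over 12859 symbols in grey, with the 39 pathway genes past the minimum as ticks under the bars, red where past the limit of -1 or 1. There are 10, 10 and 11 red ticks on the 3 days.

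The difference from day 0 lasted through day 9 for 7 of the genes. INHBA, FST, LTBP1, LTBP2 and SMURF2 were past the limit and higher on each of days 3, 6 and 9, 12.8% of the 39 genes beside 5.93% of all symbols. ID1 and ID4 were past it and lower on each of these days, 5.13% beside 3.45%. These counts rest on the same day 0 library. Between the later libraries fewer genes passed the limit than against day 0. From day 3 to day 6, no member was higher, beside 0.607% of all symbols, and INHBB was the 1 member lower, 2.56% beside 0.443%. From day 6 to day 9, no member was past the limit in either direction, beside 0.381% of all symbols higher and 0.163% lower. The median absolute log2 ratio of the 39 genes was 0.24 from day 3 to day 6, beside 0.14 over all symbols, and 0.12 from day 6 to day 9, beside 0.13. The values farthest from 0 at the first of these steps were those of INHBB (-1.46), LTBP1 (0.89) and ID1 (-0.79).

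Among the 3 TGF-beta ligands, TGFB1 and TGFB2 were expressed and TGFB3 was not. TGFB1, the form most abundant in bone matrix, had 51.7, 63.4, 62.0 and 60.1 FPKM, within the limit. TGFB2 (ENSG00000092969) had 33.8, 71.2, 52.0 and 55.1 FPKM, with its highest level on day 3 (log2 ratio 1.05) and ratios of 0.61 and 0.69 after it. The day 3 value was just past the limit. In the day 3 library the level of TGFB1 was 0.891 times that of TGFB2, whereas it was 1.53 times on day 0.

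Both activin genes passed the limit, INHBA on each day and INHBB on day 3. INHBA (ENSG00000122641), which codes for the subunit of activin A, had 43.2 FPKM before induction and then 136, 175 and 213 FPKM. Each library lay above the one before it, and the log2 ratio to day 0 was 1.63, 1.99 and 2.28. From day 3 on, INHBA had the highest level of the 11 ligand genes. INHBB (ENSG00000163083), the subunit of activin B, had 0.490, 5.17, 1.25 and 0.417 FPKM. Its level on day 3 was 10.5 times that of day 0 and 12.4 times that of day 9, so this gene was high in the day 3 library alone (log2 ratio 2.05, with 0.59 on day 6 and -0.07 on day 9).

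**Figure D3:**
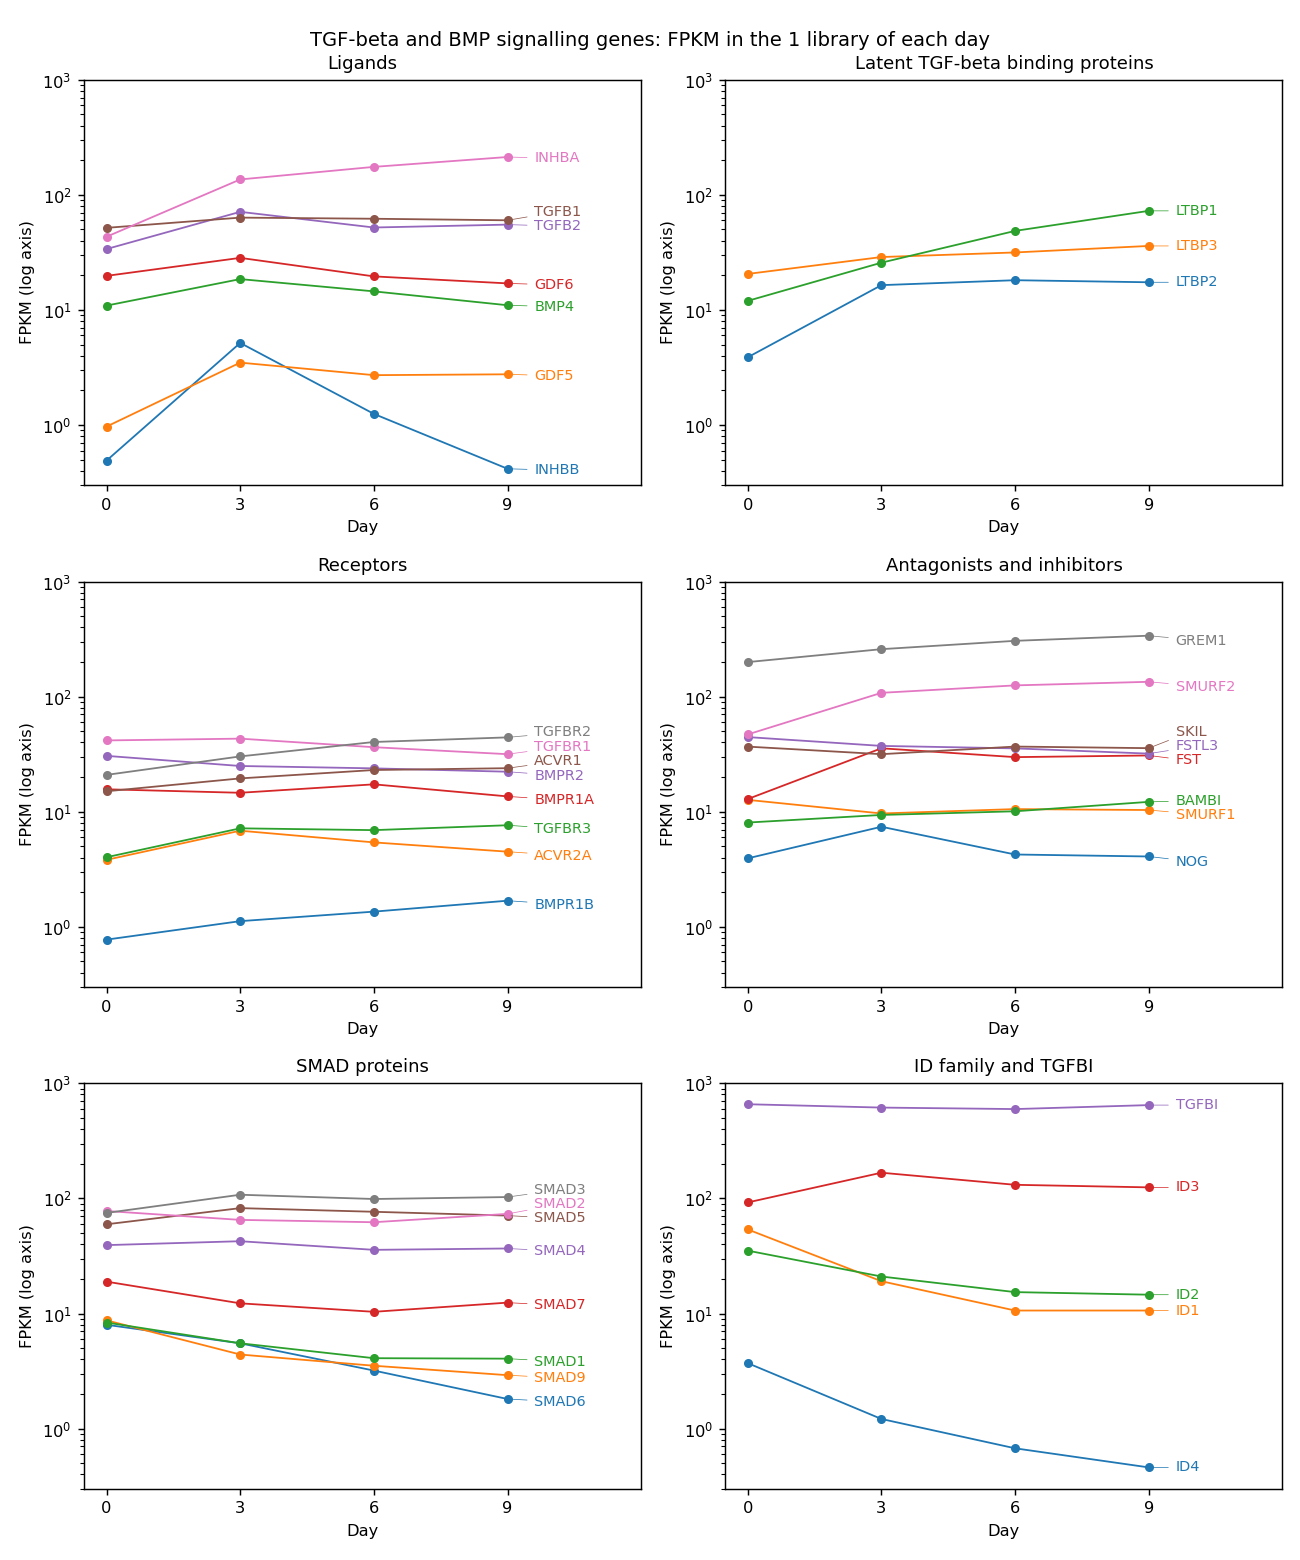
FPKM on a log axis (y axis) by day (x axis) for the 39 genes with at least 1 FPKM in any library, in 6 panels by role, where each point is the 1 library of that day and lines join the points of a gene. INHBA climbs from 43.2 to 213 FPKM and LTBP1 from 11.98 to 72.6, while ID1 goes from 53.8 to 10.6 and SMAD6 from 7.98 to 1.81.

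Of the 6 BMP and GDF ligands, BMP4, GDF5 and GDF6 passed the minimum. GDF6, a growth factor of joints and skull, was the most abundant, with 19.8, 28.3, 19.6 and 17.0 FPKM. BMP4, which promotes osteoblast differentiation, had 10.9, 18.5, 14.5 and 11.0 FPKM. GDF5 (ENSG00000125965), known from joint formation, had 0.969, 3.48, 2.71 and 2.76 FPKM. All of the 3 had their highest level on day 3. GDF5 was past the limit on day 3 (log2 ratio 1.19) and just short of it on days 6 and 9 (0.91 and 0.93), and BMP4 and GDF6 were within it throughout.

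The latent TGF-beta binding proteins tether inactive TGF-beta to the extracellular matrix. Of their genes the group holds 3, and 2 of these were higher on each later day. LTBP1 (ENSG00000049323) had 11.98 FPKM before induction and then 25.7, 48.6 and 72.6 FPKM, in the end 6.06 times the day 0 level. Its log2 ratio was 1.04, 1.93 and 2.50, and it went on to differ between the later libraries, by 0.89 from day 3 to day 6 and 0.57 from day 6 to day 9. LTBP2 (ENSG00000119681), a relative with a role in elastic fibres that does not bind latent TGF-beta, had 3.88, 16.4, 18.1 and 17.4 FPKM (log2 ratios 1.84, 1.97 and 1.91). From day 3 to day 9 its libraries lay between 16.4 and 18.1 FPKM. LTBP3 had 20.5, 28.8, 31.6 and 36.0 FPKM and was within the limit, with 0.47, 0.60 and 0.78. LTBP1, LTBP2 and LTBP3 together summed to 36.4 FPKM on day 0 and 126 on day 9. The share of LTBP1 in this sum was 32.9% on day 0 and 57.6% on day 9. LTBP4, a gene of the same family outside the group, is not in the sum. It had 32.1, 79.4, 65.6 and 68.4 FPKM and was past the limit on each day (1.28, 1.01 and 1.07). Set against TGFB1, the level of LTBP1 was 0.232 times as high on day 0 and 1.21 times on day 9.

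Of the receptor genes, 1 of 8 passed the limit. TGFBR2 (ENSG00000163513), the type II receptor that binds TGF-beta first, had 20.9, 30.2, 40.4 and 44.2 FPKM, higher in each library than in the one before. Its log2 ratio was 0.51 on day 3, 0.92 on day 6 and 1.05 on day 9, where it was just past the limit. TGFBR1, its type I partner, had 41.6, 43.1, 36.4 and 31.6 FPKM. The level of TGFBR1 was 1.99 times that of TGFBR2 on day 0 and 0.714 times on day 9, so the order of both receptors was turned over between these libraries. TGFBR3, the co-receptor betaglycan, had 4.02 FPKM on day 0 and 6.92 to 7.63 later. Of the BMP and activin receptors, BMPR2 was the most abundant and had 30.6, 25.0, 23.8 and 22.3 FPKM (log2 ratios -0.28, -0.35 and -0.44). The type I receptor ACVR1 had 15.1 to 23.9 FPKM, BMPR1A 13.6 to 17.3, BMPR1B 0.774 to 1.69, and the activin receptor ACVR2A 3.82 to 6.84, and these were within the limit on each day.

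The extracellular antagonists are secreted proteins that trap ligands. GREM1, which binds BMP2 and BMP4, was the most abundant of them, with 199.6, 258, 305 and 338 FPKM. It was higher in each library than in the one before and within the limit, with log2 ratios of 0.37, 0.61 and 0.76. The level of GREM1 was 18.3 times that of BMP4 on day 0, 13.9 times on day 3, 21.1 times on day 6 and 30.8 times on day 9. FST (ENSG00000134363), the activin-binding protein follistatin, had 12.9, 35.6, 29.8 and 30.8 FPKM and was past the limit on each day (1.40, 1.15 and 1.20). Its relative FSTL3 had 44.5, 37.3, 35.5 and 32.0 FPKM and was within it. INHBA had 3.36 times the level of FST on day 0 and 6.92 times on day 9. The BMP antagonist NOG had 7.40 FPKM on day 3 and 3.93 to 4.25 in the other libraries. BAMBI, a pseudoreceptor without a kinase, had 8.05, 9.38, 10.1 and 12.2 FPKM.

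Of the 3 inhibitors that act within the cell, SMURF2 passed the limit, on each day. SMURF2 (ENSG00000108854), a ubiquitin ligase that marks receptors and SMAD proteins for breakdown, had 46.9, 108, 125 and 135 FPKM (log2 ratios 1.18, 1.40 and 1.5). Its close relative SMURF1, which acts on the BMP SMAD proteins, had 12.7, 9.66, 10.5 and 10.3 FPKM. The level of SMURF2 was 3.70 times that of SMURF1 on day 0 and 11.2 to 13.0 times on the later days. SKIL, a nuclear repressor of SMAD activity, had 31.6 to 36.8 FPKM in the 4 libraries, with log2 ratios of -0.21, 0.00 and -0.04.

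Of the 8 SMAD genes, SMAD6 and SMAD9 passed the limit. The more abundant signal carriers were within it on each day. SMAD3 had 74.8, 108, 98.9 and 103 FPKM, SMAD2 had 62.1 to 77.7, the common partner SMAD4 had 39.3, 42.5, 35.7 and 36.7, and SMAD5 had 59.6, 82.4, 76.6 and 70.9. Of the scarcer SMAD genes of the BMP branch, SMAD9 passed it on days 6 and 9, while SMAD1 passed it on those days only with 0.1 FPKM added in place of 1. SMAD9 (ENSG00000120693) had 8.72, 4.40, 3.52 and 2.91 FPKM (log2 ratios -0.85, -1.11 and -1.31). SMAD1 had 8.35, 5.51, 4.09 and 4.05 FPKM with log2 ratios of -0.52, -0.88 and -0.89. SMAD5 provided 77.7% of the summed level of these 3 BMP SMAD genes on day 0 and 91.1% on day 9, while the sum itself was 76.7 and 77.9 FPKM.

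The inhibitory SMAD genes are induced by the signals they damp, SMAD6 mainly by BMP and SMAD7 by both TGF-beta and BMP. SMAD6 (ENSG00000137834) had 7.98, 5.51, 3.19 and 1.81 FPKM. Each library lay below the one before it, and the level on day 0 was 4.41 times that on day 9 (log2 ratios -0.46, -1.10 and -1.68). SMAD7 had 18.9, 12.3, 10.3 and 12.4 FPKM and was within the limit, with -0.59, -0.81 and -0.57. Taken as the most abundant transcript of each gene instead of the sum, SMAD9 was within the limit on day 9 (-0.64) and SMAD6 on day 6.

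The ID proteins lack a DNA-binding domain and hold back basic helix-loop-helix transcription factors, and they keep many cells in an immature, dividing state. Of the 4 genes, 3 were lower and 1 was not. ID1 (ENSG00000125968) had 53.8, 19.1, 10.6 and 10.6 FPKM, with log2 ratios of -1.45, -2.24 and -2.24. ID2 (ENSG00000115738) had 35.2, 21.0, 15.3 and 14.6 FPKM (-0.72, -1.15 and -1.22). ID4 (ENSG00000172201) had 3.70 FPKM on day 0 and 1.21, 0.674 and 0.460 later (-1.09, -1.49 and -1.69), so that on days 6 and 9 it was under 1 FPKM. In these 3 genes the day 0 library was the highest.

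ID3 (ENSG00000117318) had 92.3 FPKM before induction and then 167, 131 and 125 FPKM, and its day 0 library was the lowest. Its log2 ratios of 0.85, 0.50 and 0.43 were within the limit, and with the FPKM rescaled to an equal sum in each library it passed the limit on day 3. The summed level of the ID family was 185, 209, 158 and 150.4 FPKM, highest on day 3. ID3 made up 49.9% of that sum on day 0 and 82.9% on day 9, and ID1 made up 29.1% and 7.06%. The level of ID3 was 1.72 times that of ID1 on day 0, 8.77 times on day 3 and 11.8 times on day 9.

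**Figure D4:**
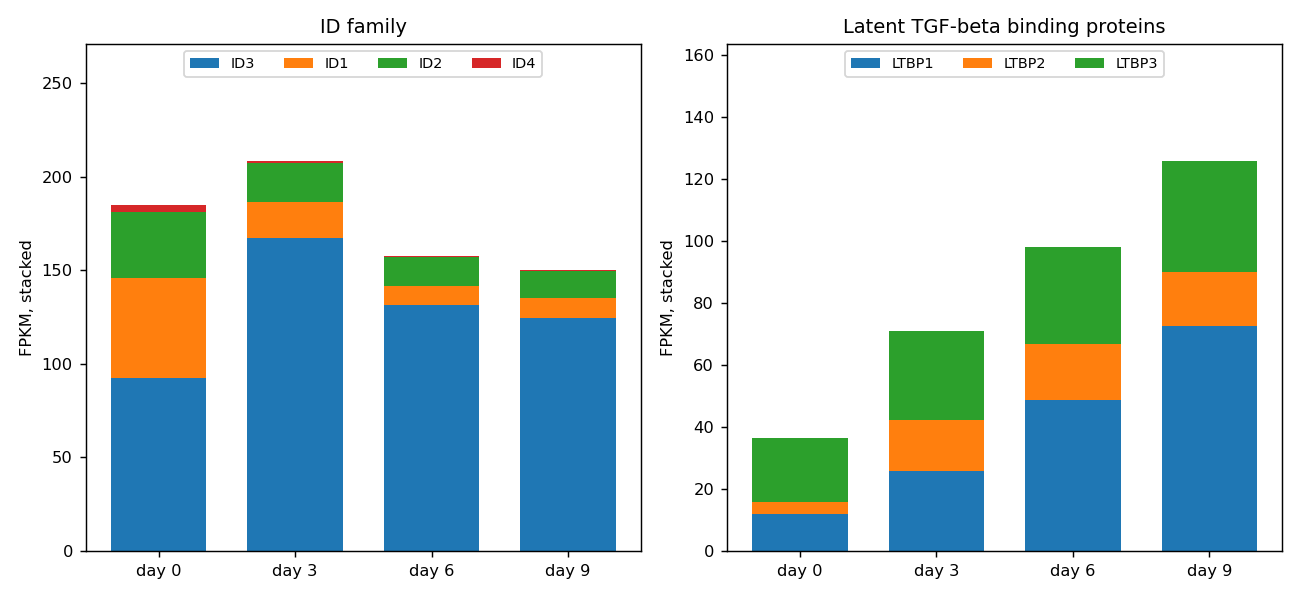
Stacked FPKM (y axis, from 0) of the ID family (left) and of LTBP1, LTBP2 and LTBP3, without LTBP4 (right), in the 1 library of each day (x axis). In the left panel ID3 fills 49.9% of the bar on day 0 and 82.9% on day 9, and in the right panel the bar grows from 36.4 to 126 FPKM with LTBP1 as its largest part on days 6 and 9.

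To set the split of the ID family beside the sequence at its starts, the promoter windows of the 4 genes are shown, from RefSeq on GRCh38.p14, each 300 bases long with 250 bases before and 50 bases after the annotated start, read 5′ to 3′ on the strand of the gene. The deposited FPKM table gives no coordinates and its genome build is not given in the sources used here, so the positions are those of RefSeq only. Capitals mark each CAGAC on either strand, the SMAD box. They also mark each GGCGCC, a GC-rich element of BMP target genes that reads the same on both strands. The last string searched, on the strand of the gene alone, was TATAA, the core of a TATA box, and no matches overlap.
ID1, chr20:31605039-31605338, strand plus: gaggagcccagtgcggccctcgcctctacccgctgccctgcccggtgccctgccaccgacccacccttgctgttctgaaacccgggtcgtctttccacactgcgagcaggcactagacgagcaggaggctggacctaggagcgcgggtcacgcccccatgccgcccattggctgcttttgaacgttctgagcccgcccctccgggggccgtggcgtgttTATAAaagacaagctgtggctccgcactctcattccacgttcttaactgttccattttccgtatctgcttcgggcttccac
ID2, chr2:8681806-8682105, strand plus: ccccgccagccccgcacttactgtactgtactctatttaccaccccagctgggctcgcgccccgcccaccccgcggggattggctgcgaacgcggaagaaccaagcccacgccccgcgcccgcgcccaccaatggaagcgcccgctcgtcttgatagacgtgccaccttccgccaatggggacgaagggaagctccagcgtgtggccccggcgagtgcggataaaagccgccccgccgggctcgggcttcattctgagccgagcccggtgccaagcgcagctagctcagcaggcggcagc
ID3, chr1:23559452-23559751, strand minus: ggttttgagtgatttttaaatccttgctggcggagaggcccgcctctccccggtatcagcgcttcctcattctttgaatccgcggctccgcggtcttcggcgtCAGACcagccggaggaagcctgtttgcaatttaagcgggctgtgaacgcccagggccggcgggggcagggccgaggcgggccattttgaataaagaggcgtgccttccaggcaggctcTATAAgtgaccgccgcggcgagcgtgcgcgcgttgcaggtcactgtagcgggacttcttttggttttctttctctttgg
ID4, chr6:19837120-19837419, strand plus: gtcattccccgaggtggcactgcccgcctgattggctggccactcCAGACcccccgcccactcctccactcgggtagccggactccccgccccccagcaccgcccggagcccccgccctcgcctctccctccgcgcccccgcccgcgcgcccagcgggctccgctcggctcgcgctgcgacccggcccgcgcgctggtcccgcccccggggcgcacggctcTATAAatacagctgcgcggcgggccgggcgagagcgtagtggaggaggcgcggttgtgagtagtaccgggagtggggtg

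TATAA was present in the windows of ID1, ID3 and ID4, 29 to 31 bases before the start, and not in that of ID2. It was found in 14.8% of all 35116 windows of this length. CAGAC was present in ID3, 147 bases before the start, and in ID4, 205 bases before it, and neither orientation was in ID1 or ID2. CAGAC in either orientation was in 45.3% of all windows. GGCGCC, which 19.2% of all windows hold, was in none of the 4. Sequence outside the windows was not searched, so these genes may hold the strings elsewhere. ID3, with log2 ratios above 0, and ID4, which was lower, thus both had a CAGAC. The GC content was 62.7% in ID1, 69.0% in ID2, 59.7% in ID3 and 76.3% in ID4, beside a median of 58.7% over all windows. RefSeq windows were found for 40 of the 44 genes, 70 windows in all, of which 27.1% held GGCGCC, 51.4% CAGAC and 12.9% TATAA.

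SMAD6 was lower on days 6 and 9, as ID1, ID2 and ID4 were. Among the ligand genes of the group, INHBA had the highest level on the later days. The windows of both are given in the same way.
SMAD6, chr15:66701986-66702285, strand plus: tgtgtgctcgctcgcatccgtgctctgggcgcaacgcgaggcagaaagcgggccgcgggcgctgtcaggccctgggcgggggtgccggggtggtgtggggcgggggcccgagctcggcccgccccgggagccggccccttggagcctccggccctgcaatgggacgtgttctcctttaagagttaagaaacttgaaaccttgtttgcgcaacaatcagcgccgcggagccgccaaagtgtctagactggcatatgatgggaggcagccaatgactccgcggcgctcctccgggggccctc
INHBA, chr7:41703041-41703340, strand minus: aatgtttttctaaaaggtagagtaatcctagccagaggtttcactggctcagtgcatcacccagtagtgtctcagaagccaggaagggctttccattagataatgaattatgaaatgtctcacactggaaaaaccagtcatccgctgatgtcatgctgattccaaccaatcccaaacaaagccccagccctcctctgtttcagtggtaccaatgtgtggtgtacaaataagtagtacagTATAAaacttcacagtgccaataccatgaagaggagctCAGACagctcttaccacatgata

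The window of SMAD6 held none of the 3 letter strings, and its GC content was 68.0%. The window of INHBA had a GC content of 43.3%, a TATAA 11 bases before the start and a CAGAC beginning 27 bases after it. A match is a string of letters, and no binding was measured in this series.

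The order of the 4 libraries was also counted, a description chosen after the values were seen. For 9 of the 39 genes the level was higher at each step from day 0 to day 9, 23.1% of them beside 11.9% of all symbols. These were INHBA, LTBP1, LTBP3, TGFBR2, ACVR1, BMPR1B, GREM1, BAMBI and SMURF2. For 7 genes it was lower at each step, 17.9% beside 13% of all symbols, namely SMAD1, SMAD6, SMAD9, ID2, ID4, BMPR2 and FSTL3. With the FPKM rescaled to an equal sum in each library, 8 of the 9 remained, without ACVR1, and ID1 joined the 7. For 14 genes day 3 was the highest library, 35.9% beside 19.2% of all symbols, among them the ligand genes TGFB1, TGFB2, BMP4, GDF5, GDF6 and INHBB, the antagonist genes NOG and FST, and ID3.

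The deposited values are per transcript, and 35 of the 39 genes have several. In 30 of these the same transcript led in all 4 libraries. INHBA was among the 5 in which it did not. Its transcript ENST00000242208 had 27.2, 71.7, 81.4 and 85.9 FPKM and ENST00000442711 had 16.1, 64.3, 93.5 and 127 FPKM. The second carried 37.2% of the gene on day 0 and 59.7% on day 9, and both were higher in each library than in the one before. For LTBP1, with 10 transcripts, ENST00000404525 led throughout with 4.22, 10.9, 18.6 and 26.9 FPKM, and ENST00000404816 had 0.950 FPKM on day 0 and 10.3, 14.9 and 17.2 later. For ID1, ENST00000376112 carried 84.1% to 91.3% of the level. SMAD9 was less steady, as ENST00000379826, which led on days 0 and 9, carried 48.3% on day 0, 10.3% on day 6 and 80.5% on day 9. How the fragments were divided between transcripts is not given in the sources used here.

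Beyond the 44 genes, 91 other genes of the pathways were listed by role, of which 60 passed the minimum. The lists were chosen with earlier results of these data known, so their counts are a description only. Day 3 had 19 of the 60 higher and 3 lower, day 6 had 15 and 4, and day 9 had 18 and 5. Over all symbols 8.13%, 9.01% and 9.6% were higher on these days and 5.3%, 6.42% and 6.52% lower, so the counts of lower genes were near those shares. The difference held on each of the 3 days for 13 higher and 3 lower genes of the 60, where 5.93% and 3.45% of all symbols were. The median log2 ratio of the 60 was 0.36, 0.44 and 0.46. The list of TGF-beta target genes had the most of them. All 10 of its genes passed the minimum. Day 3 and day 9 each had 7 higher and 1 lower, and day 6 had 6 and 1, with medians of 1.27, 1.06 and 1.21. ACTA2, smooth muscle actin, had 20.4, 168, 167 and 163 FPKM (log2 ratios 2.99, 2.98 and 2.94). BHLHE40, a circadian transcription factor, had 15.5 FPKM on day 0 and 46.3 to 47.8 later. TAGLN, an actin-binding protein, was the gene of the list that was lower, with 839, 126, 153 and 195 FPKM (-2.73, -2.45 and -2.10). These genes respond to other signals too, and their part in the pathway in these cells was not tested.

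Of 10 further BMP target genes, 7 passed the minimum, and they split in both directions, with 3 higher and 2 lower on day 3 and 2 each way on days 6 and 9. DLX2, a homeobox gene, had 9.95, 3.27, 1.68 and 1.44 FPKM (log2 ratios -1.36, -2.03 and -2.17). ATOH8, a basic helix-loop-helix gene, had 11.5, 4.13, 2.95 and 3.96 FPKM (-1.29, -1.67 and -1.34). Both were highest in the day 0 library, as ID1, ID2, ID4 and SMAD6 were. MSX2, a homeobox gene of the skull, had 1.01, 6.97, 5.38 and 5.57 FPKM (1.99, 1.67 and 1.71). RUNX2, the transcription factor that commits cells to the osteoblast lineage, had 7.37, 26.2, 19.3 and 18.2 FPKM (1.70, 1.28 and 1.20). The BMP targets of the list thus did not share a direction.

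**Figure D5:**
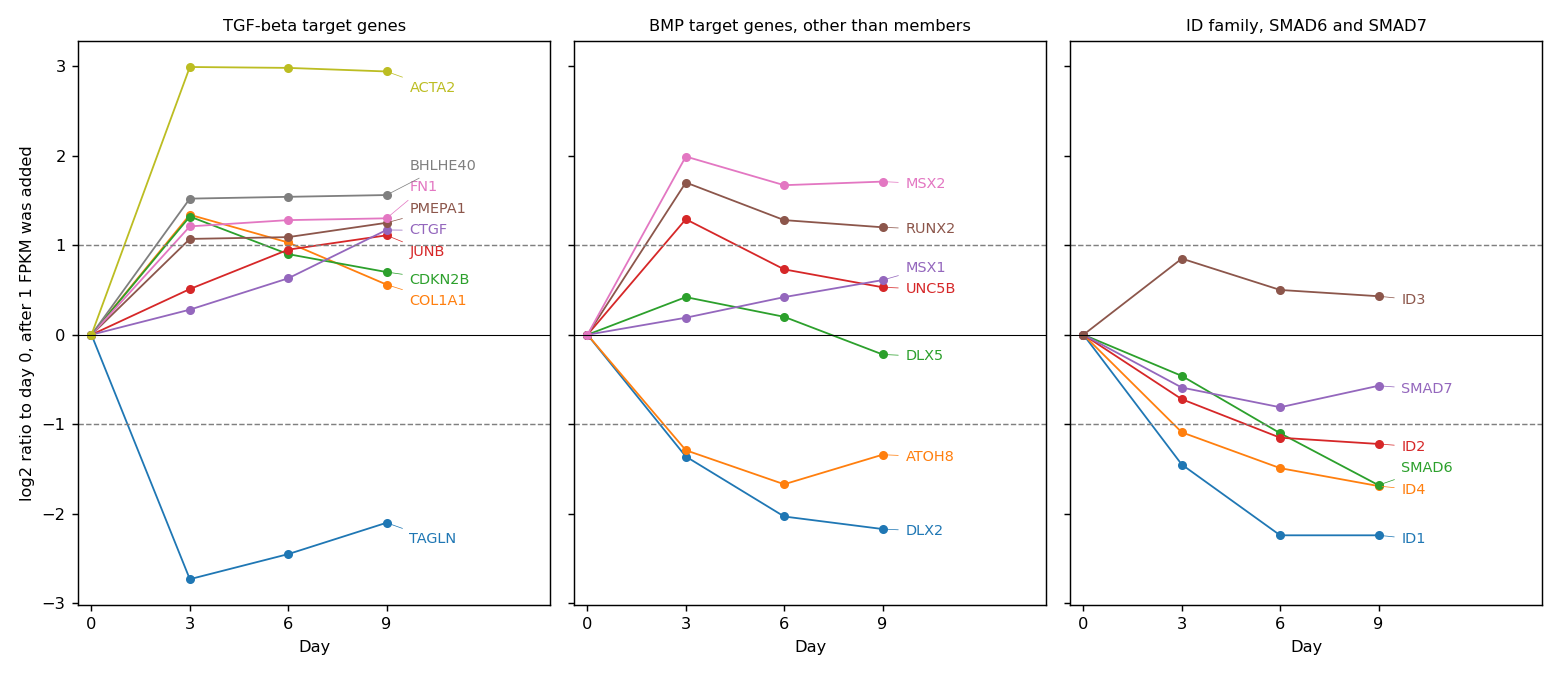
Log2 ratio to day 0 (y axis) by day (x axis) for 9 TGF-beta target genes (left), BMP target genes that are not among the 44 (middle) and the ID family with SMAD6 and SMAD7 (right), each line joining the single libraries of a gene, with day 0 set to 0 and dashed lines at the limits. On the left TAGLN alone lies below 0, in the middle MSX2 and RUNX2 lie above the upper and DLX2 and ATOH8 below the lower limit on each day, and on the right ID3 alone lies above 0.

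Among the other ligands, 5 of 22 passed the minimum and 1 was past the limit. GDF15, a distant and stress-induced relative of the TGF-beta ligands, had 11.4, 359.8, 578 and 767 FPKM, with log2 ratios of 4.87, 5.55 and 5.96. On days 3, 6 and 9 its level was above that of INHBA. Among the other antagonists, DCN, a small proteoglycan that binds TGF-beta, had 4.07, 19.8, 26.8 and 27.2 FPKM (2.03, 2.46 and 2.48). BMPER, which binds BMP, had 3.60, 13.2, 14.7 and 14.9 FPKM (1.63, 1.77 and 1.79). TGIF1, a nuclear repressor that binds SMAD2 and SMAD3, had 17.9, 41.8, 48.5 and 55.9 FPKM (1.18, 1.39 and 1.59) and was the 1 gene of 15 SMAD partners past the limit on each day. The remaining 4 genes past the limit on each day, all higher, were RGMB, LTBP4, PMEPA1 and FN1, with log2 ratios between 1.01 and 1.43.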

How the data were processed

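RNA-seq of hFOB1.19 cells on days 0, 3, 6 and 9 was analysed, with 1 library per day. According to the labels and the methods of the study, rRNA was removed and directional libraries were made, with RNase R, which digests linear RNA, named for the mRNA libraries, so the levels may not be those of untreated RNA. Reads were aligned with TopHat. The program behind the FPKM and its use of strand are not given in the sources used here. The submitters' processing notes name Bowtie 0.12.2 and the mouse build mm8, although the transcript IDs are human.

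The authors deposited FPKM per transcript for mRNAs and lncRNAs, which were summed here per gene symbol. The log2 ratio was taken after 1 FPKM was added, over all symbols with at least 1 FPKM in any library, with a limit of 1 or -1. The study names DESeq2, which needs counts and was not run. The rule was run on simulated data in which the planted changes were larger than the limit and the noise was small. That run checks the working of the rule and cannot show how many calls here are wrong. The authors' own comparisons with day 0 (fold changes, p- and q-values) and the circRNA counts, which carry no gene names, were not used.

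Genes given in every library are those past the limit and the most abundant of each role, and of the other pathway genes at most 12 with a difference on each day. Of those 12, 1 TGF-beta target gene is counted but is not reported here. Members and lists were chosen with earlier results of these data known. Promoters are from RefSeq. TATAA was added after the windows were seen. Python 3.11.15, numpy 2.4.6, pandas 2.3.3 and matplotlib 3.10.9 were used. Alternatives covered the pseudocount, minimum, scaling, limit and transcript level.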

Additional observations from a re-analysis of the deposited data

How the results depend on the processing

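No paired analysis was possible because there is 1 library per day, and for the same reason no replicate could be left out. No log2 ratio of a gene of the 44 past the limit changed its sign under 0.1 FPKM added, centring on the median, rescaling to an equal FPKM sum per library or the most abundant transcript of each gene. Of 115 counts set against alternatives, 91 were within 1.5 times the value reported. The 91 include the counts without a minimum, which could not differ. After 1 FPKM is added, a gene under 1 FPKM in every library cannot reach the limit.

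Rescaling moved the median log2 ratio over all symbols from -0.08 to 0.10 for day 3, -0.08 to 0.08 for day 6 and -0.09 to 0.01 for day 9. It added NOG and ID3 to the genes higher on day 3, TGFBR2 and GDF5 to those of day 6 and GDF5 to those of day 9, and took ID2 from the lower genes of day 6. The order of the libraries under this rescaling was added after seeing the data. With 0.1 FPKM added, INHBB and GDF5 joined the higher genes of day 6, BMPR1B and GDF5 those of day 9, SMAD1 the lower genes of both days, and 1 gene, INHBB, was lower from day 6 to day 9. With 1 FPKM required in every library of a comparison, INHBB and GDF5 were lost on day 3 and ID4 on days 6 and 9, so 1 gene, ID1, was lower on all 3 days. With the most abundant transcript, 1 gene, SMAD9, was higher from day 6 to day 9. The cause was not tested.

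The share of all symbols past a 1.5-fold or a 4-fold limit was not computed, so these counts cannot be set beside it. A 1.5-fold limit is looser by construction. It gave 13 genes higher and 5 lower for day 3, 12 higher for day 6 and 13 higher for day 9. It gave 1 higher and 4 lower from day 3 to day 6, 1 lower from day 6 to day 9, and 8 higher and 4 lower on all 3 days, with 6 other pathway genes lower on all 3. A 4-fold limit left 1 higher and 0 lower for day 3, 0 and 1 for day 6, 2 and 1 for day 9, 0 lower from day 3 to day 6, 0 and 0 on all 3 days, and 3 higher and 1 lower of the other pathway genes on all 3.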

Other observations

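The lncRNA table holds 5 lncRNAs named for genes of the group. SMAD1-AS1, antisense to SMAD1, had 4.24, 1.68, 2.99 and 1.57 FPKM on days 0, 3, 6 and 9, with log2 ratios to day 0 of -0.97, -0.39 and -1.03, and was highest in the day 0 library, as SMAD1 was. SMAD5-AS1 had 0.626, 1.51, 1.43 and 1.44 FPKM and was lowest in the day 0 library, as SMAD5 was. Since the use of strand in the counting is not given, reads of an antisense RNA and of its partner cannot be told apart here. TGFB2-AS1, ID2-AS1 and SMAD9-IT1 stayed under 1 FPKM in every library.

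Among the genes of TGF-beta latency and activation that are not in the group, THBS1, a matrix protein that can activate latent TGF-beta, had 321, 484, 562 and 732 FPKM, with log2 ratios of 0.59, 0.80 and 1.18. FBN1, the fibrillin to which latent complexes bind, had 187, 419.8, 335 and 269.7 FPKM, past the limit on day 3 (1.16) and within it on days 6 and 9 (0.84 and 0.53). FURIN, the protease that cuts the ligand precursors, had 35.2, 17.4, 16.1 and 16.8 FPKM (-0.98, -1.08 and -1.03). These 3 genes were chosen after their values were seen.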
